A study of Mus musculus with 2 samples.

Results

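The vascular endothelial growth factor (VEGF) genes were followed across the cell classes of the mouse lung: the ligands Vegfa, Vegfb, Vegfc, Vegfd and Pgf, the tyrosine kinase receptors Flt1, Kdr and Flt4, and the neuropilin co-receptors Nrp1 and Nrp2. They were chosen by symbol, and all 10 were found among the 31053 genes of both matrices. The samples were 2 lung cell suspensions of wild-type C57/B6 mice aged 2 to 4 months, one from normoxia and one from mice kept in hypoxia for 3 weeks, each depleted of CD45+ and CD326+ cells with coated beads and made into 1 10x 3' library. The hypoxia experiment used 3 animals, and the number behind the normoxia library was not given in the sources used here. Each condition had 1 library with no label of the animal of a cell, so hypoxia cannot be told apart from any other difference between the libraries and no test between conditions was possible. The intervals given are 95% intervals that cover counting error only.

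In the normoxia library 1348 of 2223 deposited cells and 5173361 UMIs (unique molecular identifiers, 1 per captured transcript) were kept, and in the hypoxia library 689 of 809 cells and 2294966 UMIs. The median was 3453 UMIs per cell in normoxia and 2224 in hypoxia, and the libraries shared 1 cell barcode. The summed level of 15 immediate-early genes, which also respond to tissue dissociation, in all kept cells was 23175 CPM in the normoxia library and 7935 CPM in the hypoxia library (CPM, UMIs of the gene per 1000000 UMIs of the group). That gap ran in the same direction in every endothelial class described here, and its part in the ratios below was not tested.

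Cells were clustered without the 10 VEGF genes and named from markers that include none of them. Endothelial-like (EC-like) clusters held 852 normoxia and 505 hypoxia cells, and all 10 endothelial markers were detected in them in both libraries. Among these were aerocyte-like ECs (122 normoxia and 60 hypoxia cells; markers such as Car4 and Ednrb), general capillary-like ECs (431 and 50; Gpihbp1, Plvap), arterial-like ECs (20 and 13; Gja5, Hey1), venous-like ECs (52 and 21; Vwf, Slc6a2) and lymphatic-like ECs (11 and 5; Prox1, Mmrn1). A further 216 normoxia and 356 hypoxia EC-like cells carried no clear subtype. Most of these hypoxia cells, 179, lay in 1 cluster that held 5 normoxia cells, so the library and the cluster cannot be told apart there. The subtype split moved with the settings. General capillary-like hypoxia cells ran from 52 with the members kept among the variable genes to 390 under a marker gate on single cells. They were 127 with up to 6000 detected genes and 124 at clustering resolution 3. Normoxia ECs with no clear subtype ran from 12 at resolution 1 to 578 with up to 10% mitochondrial UMIs. General capillary-like cells also came from different clusters in the libraries: a cluster led by interferon response genes held 16 of the 50 hypoxia cells and 15 of the 431 normoxia cells. Outside the endothelium there were 45 and 12 AT1-like, 181 and 34 fibroblast-like and 47 and 8 pericyte-like cells. Clusters left unnamed held 183 normoxia and 117 hypoxia cells and were not counted as EC-like. Their summed endothelial markers stood at 39.8% of the EC-like level in normoxia and 75.2% in hypoxia. Most of the hypoxia fibroblast-like cells, 30, lay in a cluster with mixed leading genes. Mfap4 alone of the fibroblast markers was among them, beside the airway marker Dynlrb2 and the mesothelial marker Msln. The AT1-like cells carried Ager at 7194 CPM in normoxia and 4660 CPM in hypoxia, although the suspension had been depleted of epithelium.

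VEGF ligands are secreted dimers that act through receptor tyrosine kinases on endothelium. VEGF-A binds KDR (VEGFR2), the main signalling receptor of blood vessel growth and permeability, and FLT1 (VEGFR1), which binds it tightly but signals weakly and also exists in a soluble, ligand-trapping form. VEGF-B and PlGF bind FLT1. VEGF-C and VEGF-D bind FLT4 (VEGFR3), the receptor of lymphatic endothelium, and processed VEGF-C also binds KDR. Neuropilins bind both VEGFs and class 3 semaphorins. In the lung, alveolar type 1 (AT1) cells are a known source of VEGF-A, and aerocytes are the capillary ECs apposed to them. Reads were counted at transcript 3' ends, and splice forms, including soluble Flt1, were not told apart.

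The promoters of Kdr, Flt1 and Vegfc are shown because the first marked one capillary class, the second was spread over blood ECs, and the third was the ligand whose EC level was higher in hypoxia. Sequences are from RefSeq on GRCm38.p6 and run from 250 bases before to 50 bases after the annotated start, 5′ to 3′ on the gene's strand: Kdr at chr5:75978406-75978705 (minus strand), Flt1 at chr5:147725962-147726261 (minus strand) and Vegfc at chr8:54077282-54077581 (plus strand). Capitals mark the letters ACGTG or GCGTG on either strand, the core of the hypoxia response element to which hypoxia-inducible factors bind.
Kdr: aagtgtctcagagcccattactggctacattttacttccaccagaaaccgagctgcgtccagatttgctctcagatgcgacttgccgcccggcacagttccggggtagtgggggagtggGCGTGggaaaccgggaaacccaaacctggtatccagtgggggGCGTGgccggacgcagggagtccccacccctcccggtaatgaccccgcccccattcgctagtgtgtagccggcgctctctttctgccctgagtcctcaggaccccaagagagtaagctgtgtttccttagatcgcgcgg
Flt1: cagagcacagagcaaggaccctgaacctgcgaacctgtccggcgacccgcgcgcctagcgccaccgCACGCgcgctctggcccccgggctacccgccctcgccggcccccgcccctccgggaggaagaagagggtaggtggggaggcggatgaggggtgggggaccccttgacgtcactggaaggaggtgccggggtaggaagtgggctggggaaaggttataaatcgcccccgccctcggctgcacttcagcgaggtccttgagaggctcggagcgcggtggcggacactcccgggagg
Vegfc: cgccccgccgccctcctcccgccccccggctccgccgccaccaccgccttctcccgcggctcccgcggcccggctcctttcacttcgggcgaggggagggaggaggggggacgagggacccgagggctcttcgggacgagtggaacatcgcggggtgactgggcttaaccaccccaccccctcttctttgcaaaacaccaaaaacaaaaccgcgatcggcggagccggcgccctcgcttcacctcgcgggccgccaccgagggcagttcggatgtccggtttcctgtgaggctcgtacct

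GCGTG was found 2 times in the Kdr window, 1 time in the Flt1 window and 0 times in the Vegfc window, and ACGTG in none of these. Across 32851 promoter windows of the same length, 19.6% held ACGTG and 32.4% held GCGTG, so such letters are common. All 10 genes were matched in the promoter table. Of the other members, Nrp1, Nrp2, Vegfb and 1 of the 2 annotated starts of Pgf held GCGTG, and Flt4 and Vegfd held neither. For Vegfa, the window at the 5′ end of the gene (chr17:46032328-46032627) held neither. The window of its other annotated start, inside the gene (chr17:46025114-46025413), held both GCGTG and ACGTG. A match is only a description of the letters and was not tested against binding.

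Vegfa, the principal VEGF ligand, was carried mainly by endothelium in this depleted suspension. EC-like cells held 78.9% of its 2147 UMIs in normoxia and 92.1% of its 669 UMIs in hypoxia, AT1-like cells 7.31% in normoxia and fibroblast-like cells 8.85%. EC-like cells were 63.2% of the normoxia and 73.3% of the hypoxia cells. Their level was thus close to that of all kept cells, 474 against 415 CPM in normoxia and 310 against 292 CPM in hypoxia. Per cell class the order was different: in normoxia the level was 1401 CPM (1191 to 1638) in AT1-like cells, 932 CPM (765 to 1126) in arterial-like ECs and 660 CPM (621 to 701) in general capillary-like ECs, and these intervals did not overlap. The AT1-like level rested on few cells: 5 of the 45 held 80.3% of its UMIs, and 18 (40.0%, median depth 1311 UMIs) had any. Among cells with at least 1000 UMIs the median was 573 CPM in AT1-like and 562 CPM in general capillary-like cells. The AT1-like level was 2150 CPM when cells with up to 6000 detected genes were kept and 666 CPM as a mean over cells. Vegfa was 231 CPM in fibroblast-like and 194 CPM in pericyte-like cells, whose intervals overlapped. Of the 37 pericyte-like UMIs, 30 lay in a cluster with endothelial markers at 81.9% of the EC-like level (428 CPM), and the Pdgfrb-led cluster had 58.1 CPM (23.4 to 120) from 7 UMIs. The level was 311 CPM from 13 UMIs in lymphatic-like ECs, 79.5 CPM in venous-like ECs and 22.7 CPM (13.0 to 36.9) in aerocyte-like ECs. A cluster led by leukocyte genes served as the background for the 10 genes. For Vegfa it had 71.1 CPM (34.1 to 131), from 10 UMIs in 3 of 19 normoxia cells. SMC-like cells had 20.3 CPM from 2 UMIs. The aerocyte-like level and that of the Pdgfrb-led cluster lay under that of the leukocyte-led cluster, and the venous-like interval (50.9 to 118) included it. Whether the Vegfa UMIs of the leukocyte-led cluster were background or its own expression was not tested. The venous-like level therefore cannot be called background from this.

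The same split was seen cell by cell. After each cell was thinned to 1000 UMIs, Vegfa was detected in 182 of 421 general capillary-like cells (43.2%, 38.4 to 48.1) and in 2 of 113 aerocyte-like cells (1.77%, 0.215 to 6.25) in normoxia, with 16 of 50 and 3 of 46 in hypoxia. The leukocyte-led cluster had 2 of 18. Without thinning, 78.7% of general capillary-like normoxia cells had a Vegfa UMI. The unthinned median depths were 3611 UMIs in general capillary-like, 6105 in aerocyte-like and 4685 in leukocyte-led normoxia cells, so the class with the smaller share was sequenced more deeply.

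**Figure D1:**
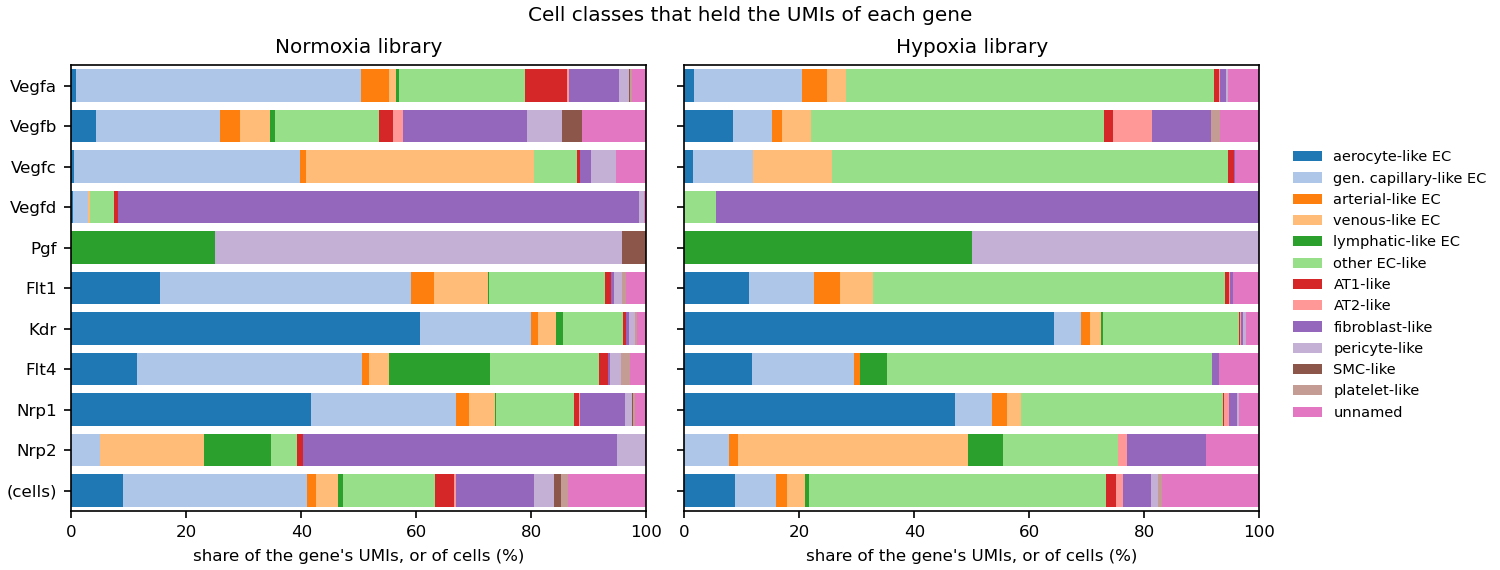
Share of each gene's UMIs held by each cell class in the normoxia (left) and hypoxia (right) library, as stacked bars in percent, with the share of cells in the bottom bar. Kdr UMIs came mostly from aerocyte-like ECs (60.7% in normoxia, 64.3% in hypoxia), which made up 9.05% and 8.71% of the cells, while Vegfd UMIs came from fibroblast-like cells.

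AT1-like cells held 157 Vegfa UMIs in 45 normoxia cells and 6 in 12 hypoxia cells. Their level was 1401 CPM in normoxia and 337 CPM (124 to 733) in hypoxia, a hypoxia/normoxia ratio of 0.240 (0.0869 to 0.535). A single normoxia cell held 26.1% of these UMIs, and without the cell richest in Vegfa in each library the ratio was 0.212 (0.0569 to 0.558). AT1 markers summed to 25686 CPM in normoxia and 20378 CPM in hypoxia, with all 10 detected in both, and the endothelial markers in these cells stood at 29.9% and 22.2% of the EC-like level. In fibroblast-like cells Vegfa stood at 231 CPM in normoxia against 83.9 CPM in hypoxia (ratio 0.364, 0.144 to 0.764), from 190 and 7 UMIs. The interval included 1 with up to 6000 detected genes (0.692, 0.419 to 1.09), with up to 10% mitochondrial UMIs (0.522, 0.107 to 1.55) and at the finer clustering of resolution 3 (0.485, 0.192 to 1.02). Most of the normoxia fibroblast-like UMIs, 173, lay in a Pdgfra- and Npnt-led cluster that had 83 normoxia and 3 hypoxia cells.

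Among ECs, Vegfa was lower in hypoxia in arterial-like cells (932 and 533 CPM, ratio 0.572, 0.366 to 0.868) and in EC-like cells as a whole (474 and 310 CPM, 0.654, 0.596 to 0.718). Within the 8 EC clusters that had at least 10 cells in each library the ratio was 0.837 (0.716 to 0.977). General capillary-like cells had 660 and 577 CPM, and the interval of their ratio included 1 (0.873, 0.720 to 1.05). That ratio was 1.03 (0.898 to 1.17) with up to 6000 detected genes and ran from 0.615 to 1.12 over the alternatives. Venous-like cells went the other way, with 79.5 CPM in normoxia and 240 CPM (150 to 363) in hypoxia, a ratio of 3.02 (1.61 to 5.62) that rested on 24 and 22 UMIs. When cells with up to 6000 detected genes were kept, both the arterial-like ratio (2.10, 0.499 to 6.80) and the venous-like ratio (0.759, 0.463 to 1.19) turned. Neither direction thus held under every cell filter. The arterial-like class then held 49 normoxia and 8 hypoxia cells, and the venous-like class 75 and 24. With up to 10% mitochondrial UMIs the venous-like ratio remained above 1 (2.98, 1.75 to 5.00). The arterial-like interval also included 1 with up to 10% mitochondrial UMIs (0.867) and with the coarser clustering of resolution 1 (0.883).

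Vegfc, a ligand of FLT4 best known for lymphatic growth, had its highest level in venous-like ECs, and its EC-like level was higher in the hypoxia library. In normoxia, venous-like ECs held 39.7% of its 365 UMIs while making up 3.86% of cells. General capillary-like ECs held 39.2%, with 32.0% of cells. In hypoxia venous-like ECs held 13.6% of 425 UMIs and ECs with no clear subtype 68.9%. The venous-like level was 480 CPM (405 to 565) in normoxia and 632 CPM (480 to 818) in hypoxia, and the ratio interval included 1 (1.32, 0.954 to 1.80). General capillary-like ECs had 88.8 CPM (74.8 to 105) in normoxia, aerocyte-like ECs 2.84 CPM, fibroblast-like cells 8.50 CPM, and lymphatic-like ECs had 0 UMIs, which allows up to 71.7 CPM. The leukocyte-led cluster had 7.11 CPM.

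In the hypoxia library Vegfc was higher in capillary and unassigned ECs. General capillary-like ECs had 206 CPM (150 to 276), a ratio of 2.32 (1.62 to 3.27). Without the interferon-led cluster, which alone had 322 CPM in hypoxia against 76.3 CPM in normoxia, that ratio was 1.55 (0.905 to 2.51), an interval that included 1. ECs with no clear subtype had 33.7 CPM in normoxia and 229 CPM in hypoxia (ratio 6.80, 4.58 to 10.5). Of their 293 hypoxia UMIs, 254 lay in the cluster of 179 hypoxia cells, at 265 CPM. In an unassigned EC cluster with 53 and 73 cells, Vegfc was 11.3 CPM from 1 UMI in normoxia and 165 CPM from 24 UMIs in hypoxia (ratio 14.6, 2.39 to 602). Over all EC-like cells the ratio was 2.26 (1.94 to 2.62), and within the 8 shared clusters 1.71 (1.36 to 2.15). The 10 endothelial markers summed to 18777 CPM in normoxia and 17473 CPM in hypoxia in EC-like cells.

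Vegfd was carried by fibroblast-like cells, with 90.6% of 309 UMIs in normoxia and 94.4% of 36 UMIs in hypoxia. The level was 340 CPM (301 to 382) in normoxia and 407 CPM (282 to 569) in hypoxia, and the ratio interval included 1 (1.20, 0.814 to 1.71). Under median scaling the direction turned (0.895, 0.608 to 1.28), with an interval that still included 1. A limit of that scaling is given below. No other class with at least 10 cells reached 20 CPM in normoxia. The fibroblast clusters differed. In normoxia the Pdgfra- and Npnt-led cluster had 415 CPM and a Dcn- and Pi16-led cluster 195 CPM. The cluster led by Cbr2 and Fam183b had 119 CPM (65.0 to 199) in normoxia and 444 CPM (290 to 651) in hypoxia. The hypoxia fibroblast-like cells came mainly from this last cluster, 30 of 34, against 84 of 181 in normoxia. Its leading genes were mixed: they also held Ccdc153, Tmem212, the airway marker Dynlrb2, the mesothelial marker Msln and, of the fibroblast markers, Mfap4 alone. Its fibroblast markers summed to 65.8% of the fibroblast-like level in normoxia and 81.6% in hypoxia. The hypoxia fibroblast-like values of all members thus come from a class whose cells lay mainly in this mixed cluster. Of the 27 hypoxia fibroblast-like Nrp1 UMIs, 13 lay there and 13 in the 3 cells of the Pdgfra- and Npnt-led cluster.

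Pgf, which encodes the FLT1 ligand placental growth factor, was seen in 24 normoxia and 2 hypoxia UMIs. Pericyte-like cells held 17 of the 24, at 89.3 CPM (52.0 to 143), and lymphatic-like ECs held 6, at 143 CPM (52.6 to 312). Of the pericyte-like UMIs, 16 lay in the Pdgfrb-led cluster of 22 normoxia cells, and general capillary-like ECs had 0 in 431 cells, which allows up to 1.86 CPM. Vegfb, a FLT1 ligand, was low in every class, at 15.5 CPM in general capillary-like ECs and 30.3 CPM in fibroblast-like cells in normoxia, with 21.3 CPM in the leukocyte-led background, and no normoxia class had an interval clear of that of the background (4.40 to 62.4).

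**Figure D2:**
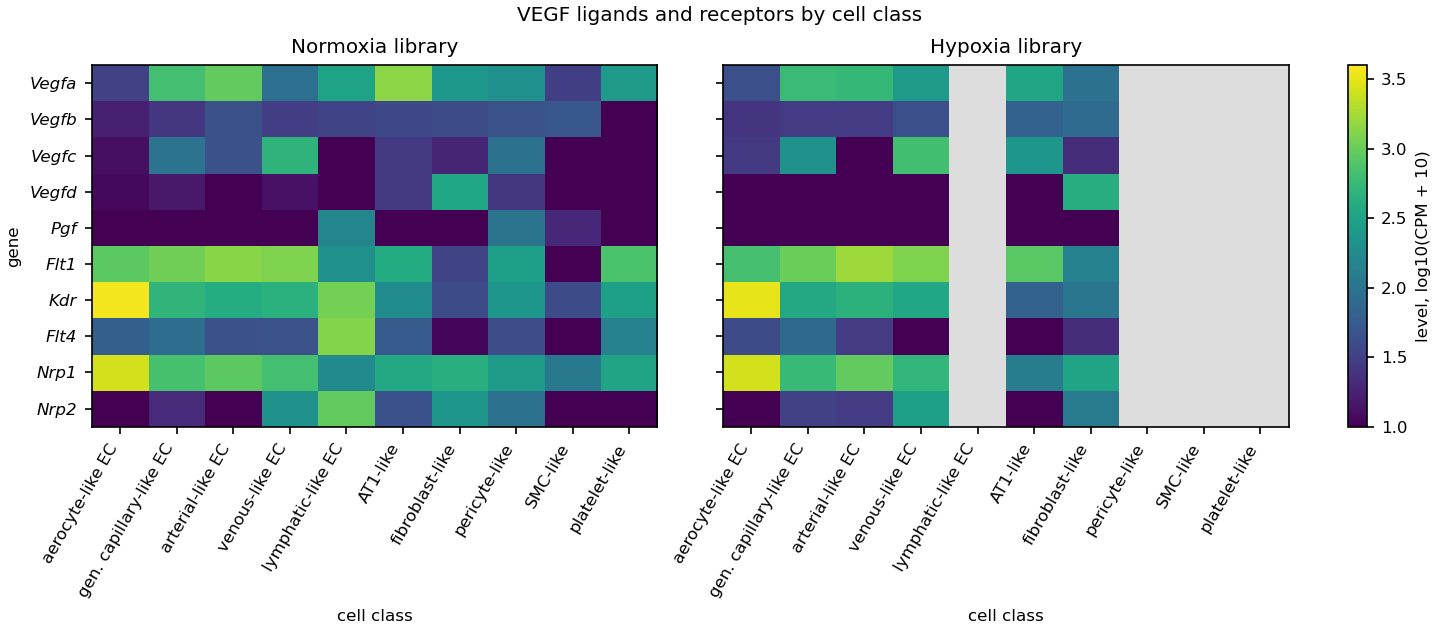
Level of the 10 genes by cell class in the normoxia (left) and hypoxia (right) library, as log10(CPM + 10); grey marks classes with fewer than 10 cells. Kdr and Nrp1 were high in aerocyte-like ECs, Vegfc in venous-like ECs, Vegfd in fibroblast-like cells, and Flt4 and Nrp2 in lymphatic-like ECs.

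Kdr, the main signalling receptor, set the aerocyte-like ECs apart from the rest. Its level there was 3545 CPM (3407 to 3687) in normoxia and 3166 CPM (2978 to 3362) in hypoxia. Lymphatic-like ECs followed with 1124 CPM (826 to 1494) in normoxia. General capillary-like (492 CPM), venous-like (447 CPM) and arterial-like ECs (397 CPM) came next, and their intervals overlapped. Both aerocyte-like clusters were high in normoxia (3575 and 3033 CPM). Thinned to 1000 UMIs, 106 of 113 aerocyte-like normoxia cells had a Kdr UMI (93.8%, 87.7 to 97.5) against 145 of 421 general capillary-like cells (34.4%, 29.9 to 39.2) and 0 of 18 leukocyte-led cells. Without thinning the aerocyte-like share was 95.1%. In hypoxia the shares were 91.3% (79.2 to 97.6) and 28.0% (16.2 to 42.5). Among single aerocyte-like cells with at least 1000 UMIs the median was 3415 CPM in normoxia against 2673 CPM in hypoxia, and the middle 50% of general capillary-like normoxia cells ran from 0 to 775 CPM.

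In hypoxia Kdr was modestly lower in capillary ECs. The ratio was 0.893 (0.830 to 0.960) in aerocyte-like, 0.726 (0.568 to 0.918) in general capillary-like and 0.573 (0.498 to 0.658) in unassigned ECs. It was 0.727 (0.686 to 0.771) in all EC-like cells and 0.872 (0.815 to 0.932) within the 8 shared clusters. The larger aerocyte-like cluster had a ratio of 0.921 (0.856 to 0.992) and the smaller one, with 29 and 22 cells, 0.509 (0.343 to 0.739). The ratios in arterial-like (1.16, 0.681 to 1.92) and venous-like ECs (0.780, 0.514 to 1.15) included 1, and the arterial-like value turned, with intervals that also included 1, with up to 6000 detected genes (0.310), with up to 10% mitochondrial UMIs (0.663) and under a marker gate on single cells (0.673).

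Flt1, the high-affinity receptor, was spread over the blood ECs. In normoxia it was 1355 CPM (1152 to 1585) in arterial-like, 1245 CPM (1123 to 1378) in venous-like, 1084 CPM (1033 to 1136) in general capillary-like and 878 CPM (811 to 950) in aerocyte-like ECs. The arterial-like and venous-like intervals overlapped, as did the venous-like and general capillary-like ones, and the aerocyte-like level was below all of them. The arterial-like place in this order was not stable: its level was 864 CPM (609 to 1191) with up to 6000 detected genes and 727 CPM (561 to 927) under the single-cell marker gate. Lymphatic-like ECs had 191 CPM from 8 UMIs. In hypoxia Flt1 was lower in aerocyte-like ECs, 665 CPM (ratio 0.757, 0.646 to 0.883), and the intervals of the ratio included 1 in general capillary-like (0.938), arterial-like (1.22) and venous-like ECs (1.01). With up to 6000 detected genes the arterial-like ratio was 0.184 (0.00455 to 1.09).

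The balance of the 2 receptors therefore differed by class. There were 4.04 Kdr UMIs per Flt1 UMI (3.69 to 4.41) in aerocyte-like normoxia cells and 4.76 (4.12 to 5.53) in hypoxia. General capillary-like ECs had 0.454 (0.417 to 0.494) and 0.351 (0.268 to 0.457), arterial-like ECs 0.293 and 0.278, and venous-like ECs 0.359 and 0.278. Capture at the 3' end differs between genes, so this ratio compares classes and not the abundance of the receptors.

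Flt1 also appeared in cells that were not ECs. AT1-like cells had 384 CPM in normoxia and 842 CPM in hypoxia (43 and 15 UMIs, ratio 2.19, 1.13 to 4.03; with median scaling 1.72, 0.886 to 3.15), and fibroblast-like cells 24.3 and 132 CPM (20 and 11 UMIs, ratio 5.43, 2.35 to 11.9). In fibroblast-like cells Kdr was likewise 30.3 and 95.8 CPM (ratio 3.16, 1.23 to 7.22). The summed endothelial markers in fibroblast-like cells were 3.40% of the EC-like level in normoxia and 15.6% in hypoxia, and in AT1-like cells 29.9% and 22.2%, with all 10 markers detected in each. The normoxia fibroblast-like levels of both receptors lay at or under the leukocyte-led background (49.8 CPM for Flt1 and 35.6 CPM for Kdr). Pericyte-like cells had 284 CPM Flt1 and 221 CPM Kdr in normoxia, but their endothelial markers stood at 38.8% of the EC-like level. In the Pdgfrb-led pericyte-like cluster, where endothelial markers were at 13.8%, the levels were 116 CPM and 49.8 CPM. The part of endothelial RNA in these values was not tested.

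**Figure D3:**
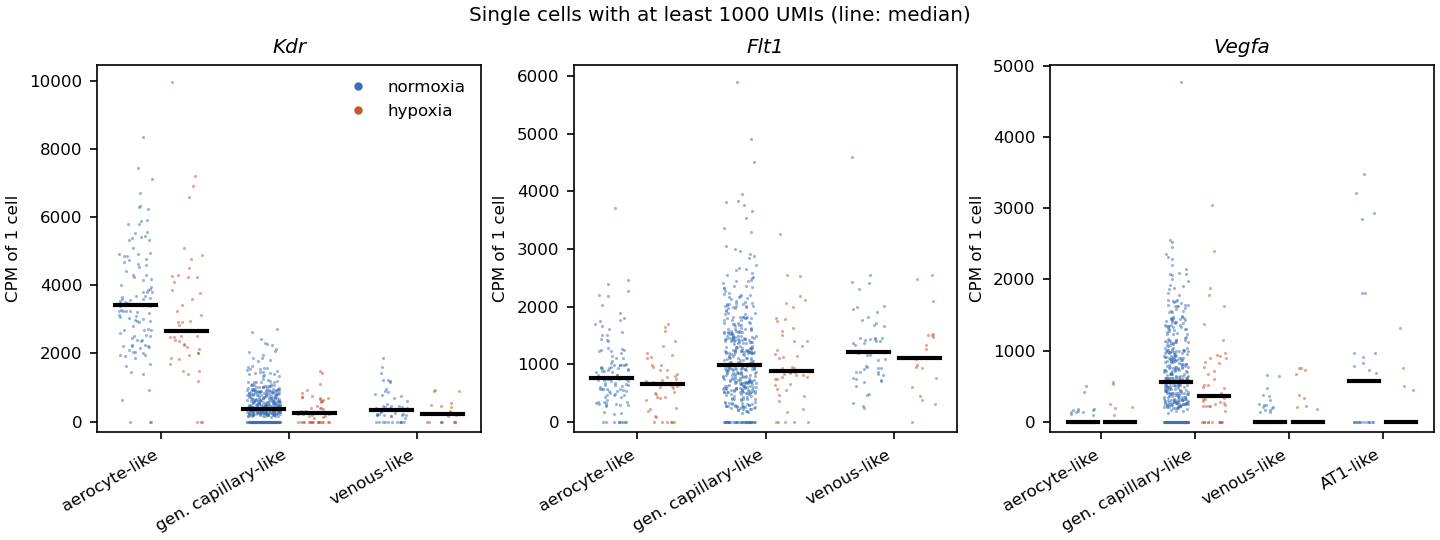
Level of Kdr, Flt1 and Vegfa in single cells with at least 1000 UMIs, in CPM, by cell class and library; points are cells and lines are medians. The Kdr median of aerocyte-like cells was 3415 CPM in normoxia against 2673 CPM in hypoxia, while most aerocyte-like and venous-like cells lay at 0 for Vegfa.

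Flt4, the lymphatic receptor, was highest in lymphatic-like ECs at 1315 CPM (991 to 1712) from 55 UMIs in 11 normoxia cells. The 5 hypoxia cells held 4 UMIs (516 CPM, 141 to 1321). Blood ECs had low levels, 75.7 CPM (62.9 to 90.4) in general capillary-like, 51.1 CPM in aerocyte-like, 36.4 CPM in venous-like and 34.5 CPM in arterial-like normoxia cells, against 14.2 CPM in the leukocyte-led cluster. Since general capillary-like cells were numerous they held 39.0% of the 313 normoxia UMIs and lymphatic-like ECs 17.6%. In hypoxia the level over EC-like cells was 39.3 CPM against 80.2 CPM in normoxia (ratio 0.489, 0.376 to 0.631), and within the 8 shared clusters the ratio was 0.579 (0.368 to 0.887). The ratio in general capillary-like cells included 1 (0.907, 0.492 to 1.56), and under the single-cell marker gate it lay below 1 (0.600, 0.445 to 0.799).

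Nrp1, which binds VEGF-A and semaphorins, followed Kdr in the aerocyte-like ECs, with 2613 CPM (2495 to 2735) in normoxia and 2650 CPM (2479 to 2830) in hypoxia, a ratio of 1.01 (0.935 to 1.10). The larger aerocyte-like cluster had a ratio of 1.05 (0.963 to 1.13) and the smaller one, with 29 and 22 cells, 0.563 (0.345 to 0.892). With up to 6000 detected genes the aerocyte-like ratio was 0.908 (0.843 to 0.978). Arterial-like ECs had 881 CPM, general capillary-like 691 CPM and venous-like 659 CPM in normoxia, where the arterial-like interval (718 to 1069) overlapped that of the others. Unlike Kdr it was also present in fibroblast-like cells, at 424 CPM (380 to 470) in normoxia and 323 CPM (213 to 471) in hypoxia, against 35.6 CPM in the leukocyte-led cluster. In general capillary-like ECs the ratio was 0.795 (0.653 to 0.960), but the interval included 1 at resolution 1 (0.926) and without the interferon-led cluster (0.889). After thinning, 96 of 113 aerocyte-like normoxia cells (85.0%, 77.0 to 91.0) had UMIs of both Kdr and Nrp1, against 73 of 421 general capillary-like cells (17.3%, 13.8 to 21.3).

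Nrp2, the co-receptor linked to veins and lymphatics, was distributed differently from Nrp1. Lymphatic-like ECs had 932 CPM (663 to 1275) from 39 UMIs, fibroblast-like cells 223 CPM (192 to 258) and venous-like ECs 202 CPM (155 to 260) in normoxia. Aerocyte-like ECs had 0 UMIs in both libraries, which allows up to 4.26 CPM in normoxia and 8.94 CPM in hypoxia. General capillary-like ECs had 10.6 CPM. Over EC-like cells the level was 36.9 and 24.7 CPM (ratio 0.668, 0.471 to 0.934), but within the 8 shared clusters the ratio was 1.34 (0.854 to 2.05). In hypoxia, venous-like ECs had 284 CPM (185 to 415), and the interval of the ratio, 0.851 to 2.26, included 1, and fibroblast-like cells 108 CPM (ratio 0.483, 0.217 to 0.937), the latter from 9 UMIs and in a class with another cluster makeup. With up to 6000 detected genes the fibroblast-like ratio was 1.08 (0.723 to 1.56), and its interval included 1 also with up to 10% mitochondrial UMIs (0.723), at resolution 3 (0.641) and under the marker gate (0.624).

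**Figure D4:**
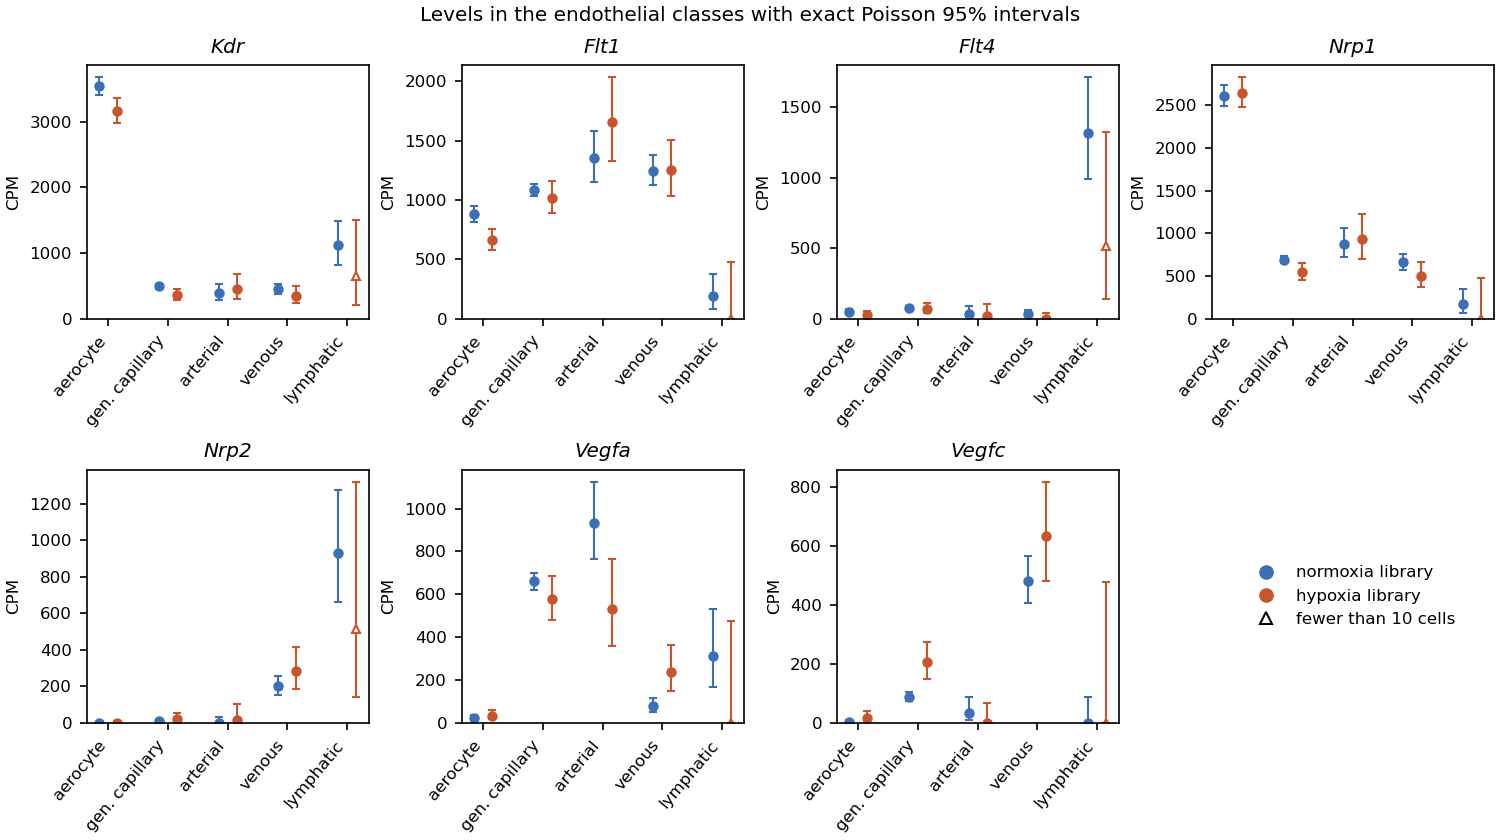
Levels of 7 of the genes in the endothelial classes, in CPM with exact Poisson 95% intervals, normoxia in blue and hypoxia in orange; open triangles mark classes with fewer than 10 cells. Kdr and Nrp1 peaked in aerocyte-like, Flt4 and Nrp2 in lymphatic-like and Vegfc in venous-like ECs. Vegfa peaked in arterial-like ECs in normoxia only; in hypoxia it was 577 CPM in general capillary-like and 533 CPM in arterial-like ECs.

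Taking a ratio beyond 1.5-fold among genes with at least 50 UMIs as a difference in size, 1 of the 8 members measured in EC-like cells was higher in hypoxia (Vegfc) and 2 were lower (Vegfa and Flt4), where 8.01% and 9.45% of 8715 genes were. In general capillary-like ECs 1 of 6 was higher (Vegfc) and 0 lower, against 12.3% and 17.0% of 5453 genes. None of 3 in aerocyte-like ECs passed (8.72% higher and 10.5% lower of 3671 genes), and none of 5 in venous-like ECs (14.6% and 15.1% of 1399 genes), where Vegfa had fewer than 50 UMIs and was not counted. With so few members, these counts are a description. The median of genes with at least 20 UMIs in each library was shifted by 0.14 (log2) in general capillary-like and by 0.17 in venous-like ECs. Scaling by it makes their hypoxia values lower by that much. This filter favours genes high in hypoxia, since the hypoxia groups held fewer UMIs. Over genes with at least 50 UMIs in total, the median ratio was 1.01 in both classes. With the filtered scaling the intervals in general capillary-like ECs lay below 1 also for Vegfa (0.791, 0.652 to 0.952) and Flt1 (0.849, 0.735 to 0.977). Those 2 results rest on the filter. The median-scaled ratios of Vegfd in fibroblast-like and of Flt1 in AT1-like cells, given above, carry the same limit.

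**Figure D5:**
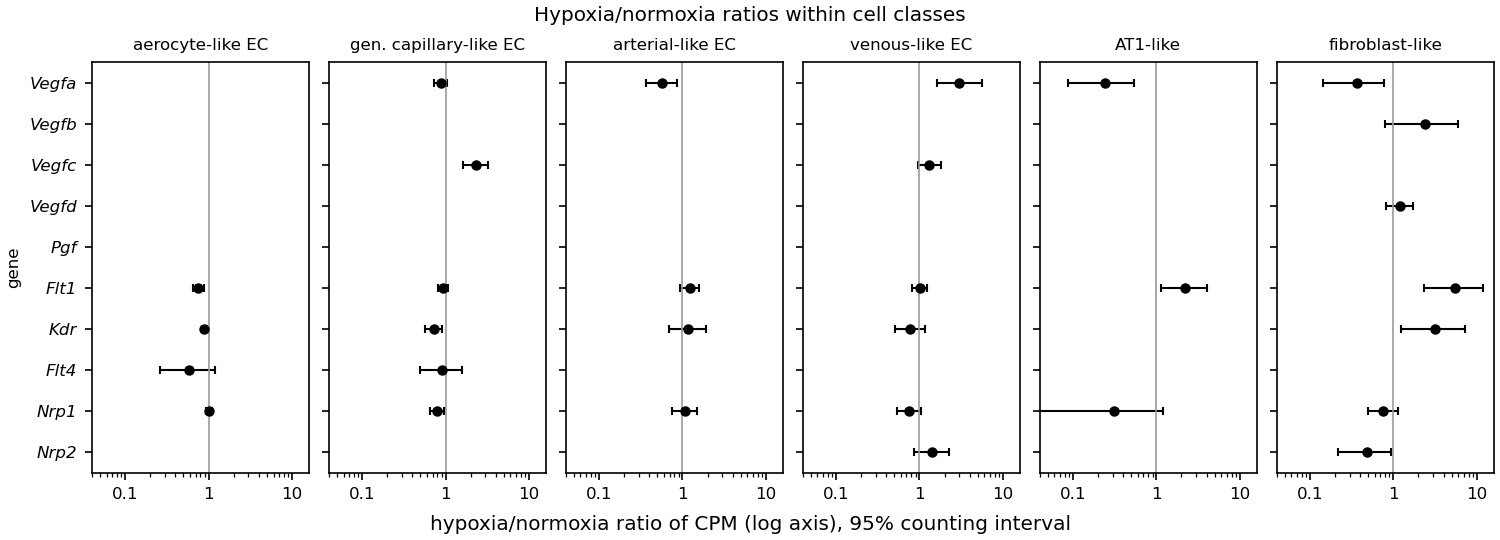
Hypoxia/normoxia ratio of CPM for each gene in 6 cell classes on a log axis, with 95% counting intervals; genes with fewer than 30 UMIs or 0 UMIs in a library are left out. Vegfc was above 1 in general capillary-like ECs, Kdr and Flt1 slightly below 1 in aerocyte-like ECs, and Vegfa below 1 in AT1-like cells and above 1 in venous-like ECs.

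Of 71 other genes of the pathway, 62 had at least 50 UMIs in EC-like cells, of which 9 were over 1.5-fold higher and 13 over 1.5-fold lower in hypoxia, where 8.01% of all 8715 genes were higher and 9.45% lower. Their median ratio was 0.972, beside 1.02 over all genes. Of the 22 receptor signalling genes measured, 3 were higher and 0 lower, with a median ratio of 1.09. Nos3, the endothelial nitric oxide synthase, was 33.8 CPM in normoxia against 62.9 CPM in hypoxia (1.86, 1.44 to 2.41), and the adaptor Shb was 9.23 and 18.6 CPM. The lowest were Pik3ca, the catalytic subunit of PI3-kinase (0.755, 0.620 to 0.916), and its regulatory subunit Pik3r1 (0.878, 0.742 to 1.04).

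Among the 8 measured neuropilin ligands and plexins, 2 were higher and 1 was lower, beside 8.01% and 9.45% of all genes. Sema3c, a class 3 semaphorin, was 1550 and 2607 CPM (ratio 1.68, 1.62 to 1.75), with ratios of 2.04 (1.65 to 2.53) in aerocyte-like and 1.09 (0.992 to 1.20) in general capillary-like ECs. Sema3b was 9.51 and 15.6 CPM, with a ratio interval that included 1 (0.976 to 2.75). The plexin Plxna1 was 147 and 65.5 CPM (0.445, 0.364 to 0.540), and Plxna4 54.0 and 40.8 CPM. In the processing and matrix list 2 of 5 were higher and 1 was lower, beside 8.01% and 9.45% of all genes. The higher ones were the proprotein convertase Pcsk5 (1.52, 1.19 to 1.93) and the perlecan gene Hspg2 (1.58, 0.914 to 2.70). The lower one was fibronectin Fn1 (15.9 and 9.57 CPM, ratio interval 0.337 to 1.02). Pcsk7 was 39.7 and 32.7 CPM.

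Of 15 genes of receptor trafficking and phosphatases, 1 was higher and 2 were lower, beside 8.01% and 9.45% of all genes. The median ratio of the list was 0.876. Emcn, a sialomucin of capillary and venous ECs that affects KDR uptake, was 307 and 626 CPM (2.04, 1.88 to 2.21), and was 416 and 739 CPM in aerocyte-like ECs. Its ratio was 1.78 in aerocyte-like, 1.72 (1.38 to 2.13) in general capillary-like and 0.985 (0.655 to 1.45) in venous-like ECs. Arf6 was 60.7 and 86.1 CPM. Clec14a, an EC surface lectin, was 1436 and 928 CPM (0.646, 0.612 to 0.682), and the ubiquitin ligase Cblb 36.3 and 24.2 CPM.

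The list of VEGF-induced targets had the most members past the fold: 9 of 12 were over 1.5-fold lower and 1 was higher, with a median ratio of 0.565, beside 9.45% of all genes lower and 8.01% higher. Egr3, an early growth response factor, was 53.7 and 6.55 CPM (0.122, 0.0638 to 0.214), and Esm1, a tip cell proteoglycan, 18.7 and 4.03 CPM (0.215, 0.0892 to 0.449). Of the 67 normoxia Esm1 UMIs, 11 lay in general capillary-like and 0 in aerocyte-like ECs. Esm1 was a leading gene of an unassigned EC cluster with 84 normoxia and 3 hypoxia cells. Ratios of these targets were not taken within shared clusters, so cluster makeup cannot be told apart from them. The others were Rcan1, Nr4a1, Dusp5, Dll4, Angpt2, Nrarp and Sox7. Sox18, a transcription factor of EC fate, was higher (266 and 456 CPM, ratio 1.71, 1.56 to 1.88), and the homeobox gene Hlx was 80.5 and 79.1 CPM. Egr3 and Nr4a1 are immediate-early genes themselves. The 15 immediate-early genes, none of which is in this list, summed to 24455 CPM in normoxia and 8441 CPM in hypoxia in EC-like cells. In aerocyte-like ECs these sums were 15923 and 9625 CPM. There 2 of 5 measured targets were lower (Egr3 and Dll4) and 1 was higher (Sox18), beside 10.5% and 8.72% of all genes. The aerocyte-like Dll4 interval included 1 (0.661, 0.416 to 1.02). In general capillary-like ECs 3 of 9 were lower (Egr3, Nrarp and Sox7) and 1 was higher (Sox18), beside 17.0% and 12.3% of all genes. There the calcineurin regulator Rcan1 was 161 and 233 CPM (1.45, 1.05 to 1.96). The intervals of Nrarp (0.455, 0.144 to 1.11), Nr4a1 (1.05) and Dusp5 (1.43) in these cells included 1. In venous-like ECs 2 of 5 were lower (Rcan1 and Nr4a1) and 2 were higher (Adamts1 and Sox18), beside 15.1% and 14.6% of all genes.

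Finally, the genes whose levels ran closest to each member over 39 cluster-by-library groups of at least 10 cells were named, as a description and by Pearson's r of log2(CPM + 10) over 5772 genes. They were Calcrl, Adgrl4 and Cdh5 for Flt1 (r = 0.961 to 0.942), Cldn5, Tspan18 and Icam2 for Kdr (0.893 to 0.869) and Itga3, Fmo1 and Mcc for Nrp1 (0.839 to 0.816). For Vegfd they were Itga8, Wisp2 and Pdgfra (0.964 to 0.937), for Nrp2 Nr2f2 and Aebp1 (0.795 and 0.688), for Vegfa Sema3g, Cd93 and Tek (0.784 to 0.769), for Vegfc Adam15, H2-DMa and Car14 (0.734 to 0.677) and for Flt4 Ralgapa2, Gimap6 and Dock9 (0.684 to 0.657). The groups share 2 libraries and differ in depth, and Cdh5, Calcrl and Cldn5 are among the markers that named the EC-like class. Likewise Cd93, Nr2f2 and Pdgfra are among the markers of the general capillary-like, venous-like and fibroblast-like classes.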

How the data were processed

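The deposited files were the authors' matrices of whole-number UMI counts per gene and cell for each library, with no normalization. Per the file headers they were made with Cell Ranger 6.1.2, and the submitters' processing notes name mm10. Genes were not renamed, and gene symbols and IDs matched GENCODE on GRCm38.

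Kept were cells in which 200 to 4000 genes were detected and mitochondrial UMIs did not exceed 5%, the limits being the only treatment of doublets. After scaling each cell to 10000 and taking logs, 2000 variable genes were chosen without the members, and 30 principal components with 15 neighbours gave 29 Leiden clusters at resolution 2 (scanpy 1.11.5, python 3.11.15), with no batch correction. Clusters were named from marker lists by several rules. Among them, at least 3 markers had to be detected, and no other class could have more of its markers among the 10 leading genes. The rest stayed unnamed or unassigned, and classes rebuilt in this way may differ from the study's. Some unnamed clusters, with medians of 725 to 920 UMIs per cell, detected 8 or 9 of the 10 endothelial markers. The members and all lists, among them the 15 immediate-early genes, were chosen with earlier results of these data known.

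UMIs were summed per class and library and given as counts per 1000000 UMIs (CPM) with exact Poisson intervals, ratios with exact conditional binomial intervals (scipy 1.17.1) and shares of cells with Clopper-Pearson intervals, at 95%. Ratios within shared clusters were instead common ratios by conditional maximum likelihood, with profile-likelihood intervals that are not exact. Shares were compared after thinning cells to 1000 UMIs (alternative 2000). The limit a count of 0 allows is 3 counts. No test was made, since each condition had 1 library. Interval coverage and the 1.5-fold calls were tested on simulated data. The simulated counts were Poisson draws, the model that the intervals assume. They cannot show the coverage where UMIs gather in few cells, as for Vegfa in AT1-like cells. The text names all 10 members, and of each pathway list the 2 genes with the highest and the 2 with the lowest ratio in EC-like cells; those named beyond this were chosen after their values were seen. Members with at least 200 UMIs were given the 3 genes most like them, of which 1 is not reported here. Alternatives were up to 6000 genes, up to 10% mitochondrial UMIs, resolution 1 or 3, the members kept among the variable genes, a marker gate on single cells, means over cells, median scaling and ratios within clusters. Leaving out the interferon-led cluster, or the cell richest in a ligand, was chosen after seeing the data.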

Additional observations from a re-analysis of the deposited data

Results flagged for a closer look

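For 3 members the hypoxia/normoxia ratio lay above 1 in one cell class and below 1 in another by the counting intervals. With 1 library per condition the difference between classes was not tested. Vegfa had ratios of 0.572 in arterial-like ECs, 0.240 in AT1-like cells and 0.364 in fibroblast-like cells, against 3.02 in venous-like ECs. The fibroblast-like interval included 1 with up to 6000 detected genes (0.692), with up to 10% mitochondrial UMIs (0.522) and at resolution 3 (0.485), and the arterial-like and venous-like ratios turned with up to 6000 detected genes (2.10 and 0.759). Flt1 had 0.757 in aerocyte-like ECs, against 2.19 in AT1-like and 5.43 in fibroblast-like cells. Kdr had 0.893 in aerocyte-like and 0.726 in general capillary-like ECs, against 3.16 in fibroblast-like cells, where its 8 hypoxia UMIs came with endothelial markers at 15.6% of the EC-like level.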

How the results depend on the processing

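No paired analysis was possible because there was a single library in each arm. For the same reason no library could be left out. When cells with up to 6000 detected genes were kept, the Kdr ratio was 0.835 in EC-like cells and the Nrp1 ratio 0.908 (0.843 to 0.978) in aerocyte-like ECs. With that filter the Vegfa ratio turned in arterial-like (2.10) and venous-like ECs (0.759) and the Nrp2 ratio in fibroblast-like cells (1.08). The cause was not tested. Under the single-cell marker gate Nrp1 in aerocyte-like ECs was 0.931. With means over cells Kdr was 0.661 in EC-like and 0.797 in aerocyte-like cells, and Nrp1 0.761 in EC-like cells. Within shared clusters the EC-like ratios were 0.837 for Vegfa, 1.71 for Vegfc, 0.872 for Kdr and 0.967 for Nrp1, and Nrp2 turned to 1.34. Of the 49 pathway genes with at least 200 UMIs in EC-like cells, 5 were higher and 8 lower. Beyond a fold of 2, 2 of 62 were higher and 6 lower. The share over all genes was not taken at these settings, so these counts have no background beside them. Over all alternatives the Vegfc ratio in general capillary-like ECs ran from 1.55 to 3.02 and the Vegfa ratio in AT1-like cells from 0.167 to 0.379. Classes with under 30 cells in the hypoxia library, and genes near 20 CPM, limit what could be seen at this depth.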
